A study of Ovis aries with 32 samples.

Results

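The interventricular septum (IVS) and the left ventricular free wall (LV) of Control lambs were compared in 16 of the 32 arrays of the series. The members were chosen by their labels alone: 8 IVS and 8 LV samples, each from an untreated Control lamb at 14 days of age, born to a ewe that received no infusion. The other 16 samples come from CORT lambs of the same age, whose mothers were infused with cortisol at 0.5 mg/kg/day until delivery, and are used only for a short comparison at the end. Per the study's methods, the Control lambs were of both sexes and included a pair of twins, and the IVS and LV samples were dissected from the same hearts, but the labels do not tie an IVS sample to the LV sample of the same lamb. Each array carries 15008 probes of 60 bases and was hybridised with labelled RNA of 1 tissue sample. A value below is a log2 intensity after background correction and normalization of the 16 arrays together, in arbitrary units, and a difference is IVS minus LV on that scale.

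The septum is the muscular wall between both ventricles. It contracts with the left ventricle and shares most of its contractile proteins, but it also faces the right ventricular cavity and carries the upper bundle branches of the conduction system. The free wall is the outer wall of the left ventricle, which pumps blood into the systemic circulation. Around and after birth the heart goes over from carbohydrate to fatty acid oxidation, and the left side takes up a higher load than before birth.

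The tissues were not hybridised on the same slides. The 8 LV arrays lay on slides 1 and 2, with 4 Control arrays on each, and the IVS arrays on 3 others: slide 3 (Control 1 and 2), slide 4 (Control 3, 4 and 5) and slide 5 (Control 6, 7 and 8). Slide 5 was scanned on the same date as the LV slides and the other IVS slides on other dates. Tissue and slide therefore cannot be told apart, also on the same scan date. The median spot of an array had an intensity between 139 and 217 in LV and between 131 and 332 in IVS, and 69.3 to 76.1% of LV and 67.3 to 80.5% of IVS probes were well above background. No probe was saturated on any of these arrays. IVS Control 1, 2 and 3 stood apart from the rest: on the first principal component, which held 33.2% of the variance, they lay at 43.2, 37.3 and 30.8, and the other 13 arrays between -15.9 and -0.94. IVS Control 8 was the dimmest array and lay lowest on the second component. The results are therefore given with all IVS arrays and with the 3 of slide 5.

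Both tissues carried heart muscle transcripts. The probe of MB (myoglobin, the oxygen store of muscle) ranged from 17.91 over a median of 18.04 to 18.47 in LV and from 17.67 over 18.23 to 18.47 in IVS (difference 0.07, SE 0.11, adjusted p = 0.770 from limma). Quantile normalization gives every array the same set of values, and LV Control 1 and 6 and the highest septum had the same value of MB, 18.47. For a probe this bright, a near-equal level was therefore partly set by the method. MYH7, the slow cardiac myosin heavy chain, ranged from 11.41 to 12.17 in LV (median 11.65) and from 10.56 to 12.07 in IVS (median 11.72), and its difference of -0.27 became 0.21 on slide 5. The second MYH7 probe, A_70_P026016, differed by -0.77 (adjusted p = 0.223 from limma) and by -0.11 on slide 5. The ranges of the probes of MB and MYH7 given first overlapped. None of the 8 markers fixed for atrial muscle and none of the 8 for conduction cells has a probe with a gene name here, so the part of the septum that holds the bundle branches could not be described.

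The probes on which the comparison turns are shown as they stand on the array, in lower case and 5′ to 3′, with no base capitalised. The first 11 were called both with all IVS arrays and on the same scan date, where a call is a Benjamini-Hochberg adjusted p under 0.05 over all probes tested. Of these, 8 were higher and 3, A_70_P038541, A_70_P018246 and A_70_P030456, lower in IVS. The file and reference tables give a gene name for 1 of them, EIF3A, and the other 10 are given by probe ID, a choice made after their values were seen. Their position in the genome was not determined here.
A_70_P065306: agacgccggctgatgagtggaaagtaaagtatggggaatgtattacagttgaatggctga
A_70_P013001: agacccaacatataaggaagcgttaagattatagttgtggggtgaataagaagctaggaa
A_70_P002426: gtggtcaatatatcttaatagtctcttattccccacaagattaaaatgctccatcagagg
A_70_P023836: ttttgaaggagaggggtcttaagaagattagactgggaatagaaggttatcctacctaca
A_70_P038541: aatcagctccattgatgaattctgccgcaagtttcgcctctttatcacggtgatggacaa
A_70_P018246: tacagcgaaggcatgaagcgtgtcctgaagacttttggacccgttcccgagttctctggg
A_70_P001611: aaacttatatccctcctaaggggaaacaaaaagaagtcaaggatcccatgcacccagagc
A_70_P012706: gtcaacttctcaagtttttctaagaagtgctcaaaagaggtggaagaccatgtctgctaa
A_70_P030456: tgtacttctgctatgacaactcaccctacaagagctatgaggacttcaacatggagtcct
A_70_P003531 (EIF3A): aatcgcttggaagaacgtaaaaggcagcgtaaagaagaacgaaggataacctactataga
A_70_P031791: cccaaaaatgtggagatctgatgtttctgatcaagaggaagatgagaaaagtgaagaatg

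The next set holds the second probe of EIF3A and the probes of the other named genes that were called with all IVS arrays, with the second probe of AGGF1 and of LOC443338. The longest run of bases that the 2 probes of a gene share is 8 for EIF3A, 12 for LOC443338 and under 8 for AGGF1. For LOC443338 these 12 bases end A_70_P041227 and start A_70_P041226, so its probes lie next to each other on the transcript. The pairs of EIF3A and AGGF1 give nearly separate measurements of the same RNA in the same samples.
A_70_P003532 (EIF3A): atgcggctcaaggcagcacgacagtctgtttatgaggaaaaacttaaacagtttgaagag
A_70_P056091 (AGGF1): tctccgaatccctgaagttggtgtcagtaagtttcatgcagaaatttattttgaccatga
A_70_P056092 (AGGF1): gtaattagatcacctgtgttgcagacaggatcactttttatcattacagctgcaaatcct
A_70_P031206 (EIF4G1): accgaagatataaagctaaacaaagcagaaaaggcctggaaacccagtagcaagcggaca
A_70_P018281 (AIMP2): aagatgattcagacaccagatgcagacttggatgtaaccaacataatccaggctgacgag
A_70_P039436 (ATP6V0C): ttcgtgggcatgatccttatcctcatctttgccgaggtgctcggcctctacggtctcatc
A_70_P041227 (LOC443338): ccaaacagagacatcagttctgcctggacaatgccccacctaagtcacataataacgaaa
A_70_P041226 (LOC443338): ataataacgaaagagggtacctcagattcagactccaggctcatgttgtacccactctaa

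With all 8 IVS arrays, 62 of the 11325 probes tested were called (0.547%), of which 39 were higher in IVS (0.344%) and 23 lower (0.203%). None of these calls was left with slide or with the replicate number as a block (smallest adjusted p 0.279 and 0.0518 from limma). The named ones among the 62 were few: EIF3A, EIF4G1 and AGGF1 were higher in the septum, and AIMP2, ATP6V0C and LOC443338 lower. The differences called were small, from 0.293 to 1.19 in size with a median of 0.481. The smallest adjusted p was 0.00857. At an unadjusted p under 0.05, 2003 probes passed (17.7%), 988 of them higher (8.72%) and 1015 lower (8.96%) in IVS, where 566.25 would pass by chance alone. The 8 IVS and 8 LV values did not overlap for 28 of the called probes (18 higher and 10 lower) and for 53 of all probes tested (0.468%). As the gene names cover 1634 of the probes on the array, most of the called probes could be described by their values only.

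EIF3A encodes the scaffold subunit of eIF3, the complex that brings the small ribosomal subunit to messenger RNA. Its probe A_70_P003531 ranged from 12.10 over a median of 12.27 to 12.48 in LV and from 12.45 over 12.81 to 13.37 in IVS. Of the 8 septa, 7 lay above every free wall, and IVS Control 3 lay just inside the LV range. The difference was 0.56 (SE 0.11), a ratio of 1.48 (adjusted p = 0.0335 from limma, exact permutation p = 0.000311). Here and below, the permutation exchanges all arrays freely and ignores their slides. For genes picked because limma called them on the same values, its p is no independent evidence. On slide 5 the values were 12.78, 12.83 and 13.37, the highest of them on the dim array of Control 8, and the difference from LV was 0.71 (SE 0.13, adjusted p = 0.0450 from limma). The second probe, A_70_P003532, differed by 0.47 with all IVS arrays (adjusted p = 0.0563 from limma, just past the threshold) and by 0.66 on slide 5 (adjusted p = 0.0442).

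EIF4G1 encodes the scaffold of eIF4F, the complex that holds the cap of the messenger RNA for translation. Its level in LV ranged from 7.80 over 7.96 to 8.15 and in IVS from 8.21 over 8.35 to 8.60. Both groups were fully apart, with the lowest septum above the highest free wall. The difference was 0.41 (SE 0.07), a ratio of 1.33 (adjusted p = 0.0245 from limma, exact permutation p = 0.000155, the smallest that 8 against 8 samples can give). On slide 5 the 3 septa lay at 8.21, 8.31 and 8.31, still above every free wall, but the difference of 0.31 did not pass adjustment (adjusted p = 0.0920 from limma).

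AGGF1 is a secreted angiogenic factor first known from vascular malformations. Its probe A_70_P056091 ranged from 10.05 over 10.19 to 10.44 in LV and from 10.42 over 10.62 to 10.96 in IVS, with 7 of 8 septa above every free wall. The difference was 0.42 (SE 0.08), a ratio of 1.34 (adjusted p = 0.0387 from limma, exact permutation p = 0.000311). On slide 5 the values were 10.72, 10.96 and 10.49, and the difference was 0.52 (adjusted p = 0.0614 from limma). The second probe, A_70_P056092, gave 0.35 with all IVS arrays (adjusted p = 0.0686 from limma) and 0.54 on slide 5, where it was called (adjusted p = 0.0392).

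AIMP2 is a scaffold protein of the complex that joins several aminoacyl-tRNA synthetases. It ranged from 8.91 over 9.08 to 9.29 in LV and from 8.15 over 8.67 to 8.81 in IVS, and every septum lay under every free wall. The difference was -0.55 (SE 0.10), so that the LV was 1.47 times as bright (adjusted p = 0.0292 from limma, exact permutation p = 0.000155). On slide 5 it was -0.34 (adjusted p = 0.0872 from limma), against -0.90 on slide 3 and -0.54 on slide 4.

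ATP6V0C is the ring subunit of the membrane part of the proton pump that acidifies lysosomes and vesicles. The LV samples lay close together, from 11.70 over 11.84 to 11.998, and the septa from 10.68 over 11.36 to 11.67, under every free wall. IVS Control 1, 2 and 3, the arrays that stood apart, were the lowest at 10.68, 10.70 and 10.80, and the other 5 septa lay between 11.33 and 11.67. The difference was -0.65 (SE 0.14, adjusted p = 0.0479 from limma, exact permutation p = 0.000155) with all arrays and -0.40 (adjusted p = 0.0679) on slide 5. LOC443338, a gene with no further name in the reference table, ranged from 11.49 over 12.05 to 12.54 in LV and from 10.65 over 11.30 to 11.64 in IVS, with 6 of 8 septa under every free wall. Its difference was -0.77 (SE 0.16, adjusted p = 0.0390 from limma) with all arrays and -0.50 on slide 5 (adjusted p = 0.209), and its second probe A_70_P041226 gave -0.56 (adjusted p = 0.111) and -0.30.

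**Figure D1:**
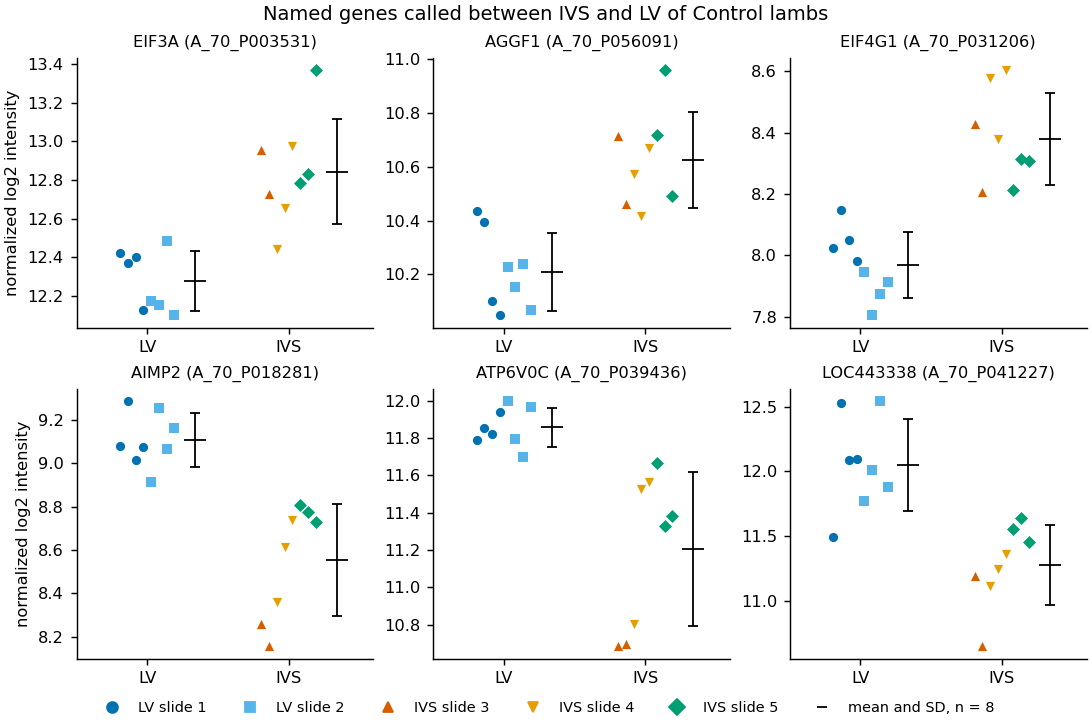
Normalized log2 intensity (vertical axis) of the 6 named genes called with all IVS arrays, by tissue (horizontal axis). Each point is 1 array, coloured by slide, and the bar is the mean with its SD (n = 8). All 8 septa lie above every free wall for EIF4G1 and 7 of 8 for EIF3A and AGGF1, all 8 lie below for AIMP2 and ATP6V0C and 6 of 8 for LOC443338, and both slide 3 septa lie farther from the LV than any other septum for AIMP2 and ATP6V0C.

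The unnamed probes with the largest differences went both ways. A_70_P028786 was lowest in p: it ranged from 11.62 over 11.87 to 12.17 in LV and from 10.71 over 11.06 to 11.49 in IVS, with no overlap, and differed by -0.79 (SE 0.11, adjusted p = 0.00857 from limma) and by -0.59 on slide 5 (adjusted p = 0.0592). A_70_P035421 was higher in IVS, at 10.96 over 11.14 to 11.50 against 9.97 over 10.42 to 10.88 in LV, also with no overlap (difference 0.79, SE 0.12, adjusted p = 0.0152, and 0.60 on slide 5, adjusted p = 0.103). A_70_P057261 differed by 0.74 (SE 0.14, adjusted p = 0.0328) and by 0.72 on slide 5, where it was not called (adjusted p = 0.107). The largest difference among the called probes was that of A_70_P002051, -1.19 (SE 0.26, adjusted p = 0.0483), measured on 7 of 8 IVS arrays because the spot was an outlier on IVS Control 8 and was left out there. Its LV values lay between 16.77 and 17.05. The septa of slide 5 lay close under them at 16.62 and 16.68 and those of slides 3 and 4 between 14.83 and 16.29, and the difference on slide 5 was -0.27.

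The question whether a difference holds where the scan date is shared was answered with the 3 septa of slide 5 against the same 8 free walls. There 38 probes were called (0.336%), 27 higher and 11 lower, and 1908 had an unadjusted p under 0.05 (16.8%). Called in both, and in the same direction, were the 11 probes shown first, which is 17.7% of the 62 and 28.9% of the 38. All 62 probes called with all IVS arrays kept their direction on slide 5, as did 66.1% of all probes tested, and 61 of them also had an unadjusted p under 0.05, against 14.2% of all probes. The probe that did not was one of the 23 lower ones. Both comparisons share the slide 5 septa and the LV arrays, so these shares are a description and no second test. The differences of the 62 were smaller on slide 5 for 44 probes, with a median size of 0.388 in place of 0.481. A further 27 probes were called on slide 5 only.

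Among the 11 probes called in both, the 8 higher ones differed by 0.44 to 0.57 with all IVS arrays and by 0.54 to 0.81 on slide 5. The largest on slide 5 was A_70_P012706, at 10.80 ± 0.18 (SD, n = 8) in LV and 11.37 ± 0.32 (SD, n = 8) in IVS (difference 0.57, and 0.81 on slide 5). A_70_P065306 had the smallest adjusted p on slide 5, 0.0149 from limma, with 9.57 ± 0.14 in LV and 10.13 ± 0.18 in IVS (difference 0.55, and 0.72 on slide 5). The lower ones were A_70_P018246 with differences of -0.64 and -0.69, A_70_P038541 with -0.54 and -0.48, and A_70_P030456 with -0.38 and -0.52. Each of the 11 kept its direction on slides 3, 4 and 5 taken alone. They were chosen by calls that rest on these same slides, so this is no separate support. It also does not set them apart: A_70_P059781, called with all IVS arrays but not held, differed by -1.04, -0.99 and -0.25 on slides 3, 4 and 5. The calls on slide 5 rest on the dim array, IVS Control 8: without it 0 probes were called on the same scan date and 0 held in both, while 50 of the 62 kept their direction with an unadjusted p under 0.05. Without IVS Control 7 the numbers were 7, 1 and 54, and without IVS Control 6 they were 27, 6 and 53.

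**Figure D2:**
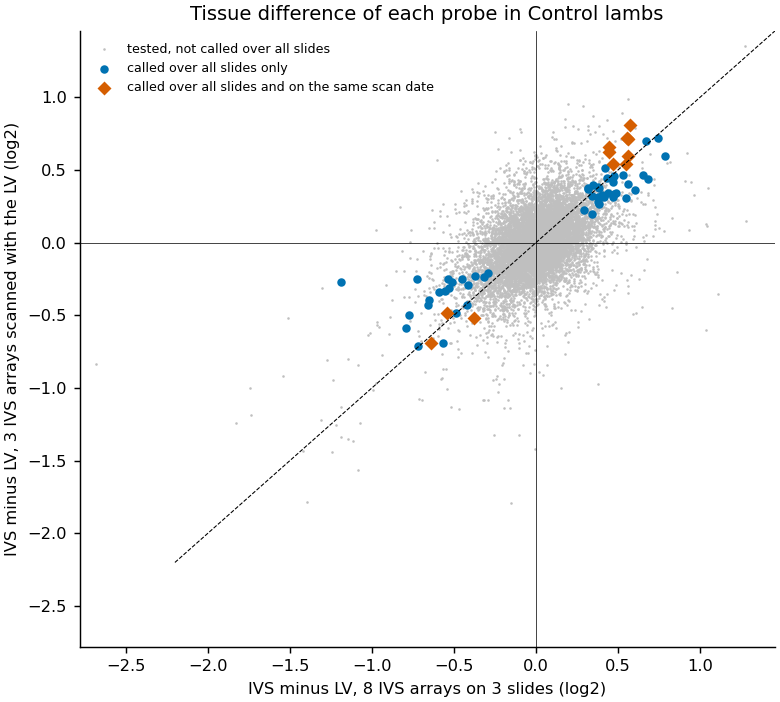
Log2 difference of every tested probe with 8 IVS arrays (horizontal axis) and with the 3 IVS arrays scanned with the LV (vertical axis), each against the same 8 LV arrays. The 62 called probes all lie in the quadrants of equal sign, 44 of them nearer to 0 on the vertical axis than the dashed line of equality, and the 11 orange diamonds are those called in both.

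Named genes called on slide 5 but not with all arrays were IGF1R and SLC12A4, beside the second probes of EIF3A and AGGF1, and they were picked after their values were seen. IGF1R, the receptor of insulin-like growth factor 1, lay at 9.45, 9.43 and 9.21 on slide 5 under every free wall (9.80 to 10.16), a difference of -0.63 (adjusted p = 0.0263 from limma). The septa of slides 3 and 4 lay between 9.62 and 10.29, across the LV range, and the difference with all arrays was -0.27 (adjusted p = 0.292). A second IGF1R probe pointed the other way, with 0.27 and 0.29, so the direction of this receptor was not settled. SLC12A4, a potassium and chloride cotransporter that keeps cell volume, lay at 9.94, 9.89 and 9.81 on slide 5 against 10.24 to 10.58 in LV (difference -0.47, adjusted p = 0.0392 from limma), and differed by -0.28 with all arrays (adjusted p = 0.203).

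How many probes were called depended on the IVS slides used. Slide 3 alone, with 2 arrays, gave 3950 calls against the LV, slide 4 alone 226 and slide 5 alone 38, and the median size of the difference over all probes was 0.251, 0.132 and 0.126. Without slide 3 the count was 12, without slide 4 it was 241 and without slide 5 it was 1410. With slide as a random block the count was 0 (875 probes with an unadjusted p under 0.05, smallest adjusted p 0.279, estimated correlation within a slide 0.305). Between the 3 slides of the septum, where the tissue is the same, 1176 probes were called by the F test of limma (10.4%), and between the 2 slides of the LV 0 (0%, with 818 at an unadjusted p under 0.05 and 1 call from the processed signal). Without IVS Control 1, 2 and 3, an alternative added after the data were seen, 8 probes were called.

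**Figure D3:**
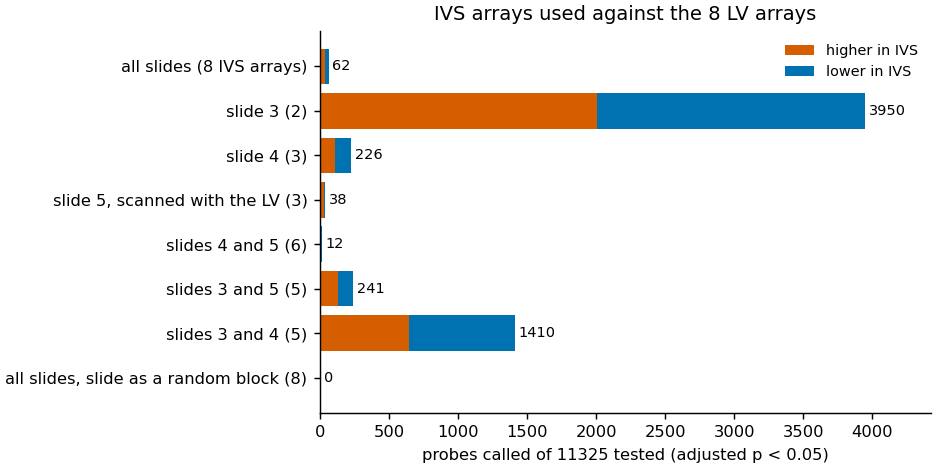
Number of probes called (adjusted p under 0.05, horizontal axis) between the 8 LV arrays and the IVS arrays named on the vertical axis, with the number of IVS arrays in parentheses. The 3950 calls of slide 3 exceed the 226 of slide 4 and the 38 of slide 5, and slide as a random block leaves 0.

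The 22 lists of heart genes hold 734 genes, of which 218 have a probe with a gene name and 190 were tested. None was called with all IVS arrays and 31 had an unadjusted p under 0.05. Probes with a gene name leaned lower in the septum as a whole: of 1080 tested, 40 (3.7%) were higher and 115 (10.6%) lower at an unadjusted p under 0.05, with a median difference of -0.0391 against 0.0015 over all probes. On slide 5, 84 of them were higher and 88 lower, with a median of -0.0277 against 0.00202 over all probes. The counts and medians of the lists that follow stand beside these.

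Of 11 genes of the extracellular matrix tested, none was called, 4 had an unadjusted p under 0.05, all of them lower in the septum, and 4 had a difference above 0. The list's median was -0.179. On slide 5 the median was 0.00995 and 1 member was higher and 0 lower at an unadjusted p under 0.05. COL3A1, the fibrillar type III collagen, came nearest to a call: it ranged from 8.96 over 9.13 to 9.54 in LV and from 8.11 over 8.65 to 9.01 in IVS, with 6 of 8 septa under every free wall (difference -0.56, SE 0.13, adjusted p = 0.0563 from limma). On slide 5, however, COL3A1 lay at 9.002, 9.01 and 8.88 and the difference was -0.24 (adjusted p = 0.340 from limma). COL1A2, a chain of type I collagen, differed by -0.32 with all arrays and -0.05 on slide 5, and DCN (decorin, which binds collagen fibrils) by -0.31 and 0.02. The second DCN probe gave -0.53 and -0.20, and the other COL3A1 probes -0.23 and -0.42 with all arrays and -0.25 and -0.09 on slide 5.

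The same genes stand in the fibroblast marker list. All 5 of its 12 markers with a probe were tested, 3 had an unadjusted p under 0.05, all lower, and the summed intensity of the 5 ranged from 28900 to 50900 in LV and from 23600 to 40300 in IVS. The list's median was -0.307, and -0.0525 on slide 5, where 0 of the 5 had an unadjusted p under 0.05. In bulk tissue, fewer cells of a type and less RNA per cell cannot be told apart. For endothelial cells, 7 of 14 markers were tested and 1, KDR, had an unadjusted p under 0.05, with a list median of -0.013 (0.00773 on slide 5). The summed intensity of the 9 endothelial markers with a probe, tested or not, was 4910 to 7800 in LV and 4120 to 7460 in IVS. For adipocytes, which fill the fat on the surface of the heart, 7 of 14 were tested with a median of -0.106 (-0.149 on slide 5, where 2 were lower at an unadjusted p under 0.05). The summed intensity of the 8 adipocyte markers with a probe, tested or not, ranged from 5670 to 10100 in LV and from 5400 to 8670 in IVS. The part of these cell types in any difference was not tested.

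Angiogenesis was the one list of 10 or more tested genes whose median was above 0 in both comparisons, at 0.0835 with all slides and 0.0912 on slide 5, though it was -0.00234 on slide 3 alone. Of 14 tested, 3 were higher and 0 lower at an unadjusted p under 0.05: KDR (the main VEGF receptor of endothelium, 0.25, adjusted p = 0.192 from limma), ANGPT1 (a ligand that steadies vessels, 0.21, adjusted p = 0.195) and PDGFB (a growth factor that draws pericytes to vessels, 0.14, adjusted p = 0.251). Their IVS ranges overlapped the LV ranges. On slide 5 the differences were 0.18 for KDR, 0.16 for ANGPT1 and 0.16 for PDGFB. The other probes of KDR varied: A_70_P026596 gave 0.11 with all arrays and 0.42 on slide 5 (adjusted p = 0.0592 from limma), A_70_P026597 gave 0.11 and 0.55 (adjusted p = 0.0557), and A_70_P041632 gave 0.24 and 0.09. The other PDGFB probes gave 0.07 and 0.09 with all arrays, and 0.05 and -0.11 on slide 5. The 3 members with an unadjusted p under 0.05 on slide 5 were others: VEGFA (0.63, adjusted p = 0.0940 from limma), FGF2 (0.56, adjusted p = 0.0872) and FGF7 (0.57, adjusted p = 0.0997). With all arrays these 3, picked after their values were seen, differed by 0.35, 0.09 and 0.25. FGF2 was lower than in LV on slides 3 (-0.37) and 4 (-0.08). The other 3 FGF7 probes gave -0.02, 0.23 and 0.12 on slide 5, none with an unadjusted p under 0.05. With all arrays they gave 0.09, 0.01 and -0.006.

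Of 17 genes of cytosolic ribosomal proteins tested, none was called, 6 were lower and 0 higher at an unadjusted p under 0.05, and 5 had a difference above 0. The median was -0.158. On slide 5 the median was 0.0141 and 2 were lower. RPL13A, a protein of the large subunit, was the member with the lowest p: it ranged from 14.92 over 15.19 to 15.52 in LV and from 13.76 over 14.79 to 15.05 in IVS (difference -0.62, adjusted p = 0.110 from limma, and -0.32 on slide 5). RPL34 differed by -0.64 with all arrays and by -0.07 on slide 5, and its second probe by -0.25 and 0.26. RPSA differed by -0.29 and -0.25, and RPS20 by -0.22 and 0.01. On slide 3 alone the list's median was -0.432.

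Single metabolic genes went both ways, but the median of both lists that follow was below 0 with all arrays and on slide 5. Over all tested probes with a gene name the medians were -0.0391 and -0.0277. In fatty acid uptake and oxidation, 14 genes were tested. The list's median was -0.0685, and -0.112 on slide 5, where 0 were higher and 3 lower at an unadjusted p under 0.05. With all arrays, 1 of the 14 was higher and 2 were lower at an unadjusted p under 0.05. The higher one was CPT1A, the gate of fatty acid entry into mitochondria (0.34, and 0.38 on slide 5, but -0.02 on slide 3). DGAT1, which makes triglyceride, was lower, with differences of -0.31 and -0.30 and an unadjusted p under 0.05 in both comparisons (adjusted p = 0.0777 and 0.134 from limma), and its second probe gave -0.35 and -0.23. FABP4, a fatty acid carrier of adipocytes and endothelium, ranged from 6.64 over 7.12 to 10.31 in LV and from 6.66 over 6.74 to 7.65 in IVS. LV Control 2, 5 and 8 were at 9.68, 10.31 and 9.89 and all other arrays at 7.65 or less, so the difference of -1.19 (adjusted p = 0.248, and -1.34 on slide 5) rests on 3 free walls, and the probe was well above background on 6 LV and 4 IVS arrays.

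In glucose uptake and glycolysis, 12 genes were tested. The list's median was -0.132, and -0.106 on slide 5, where 2 were higher and 3 lower at an unadjusted p under 0.05. With all arrays, 0 were higher and 2 lower at an unadjusted p under 0.05. These were ALDOA, the muscle aldolase (-0.26, and -0.35 on slide 5, both with an unadjusted p under 0.05, adjusted p = 0.181 and 0.213 from limma), and SLC2A1, the basal glucose transporter (-0.35 and -0.30), whose second probe gave -0.03 and 0.08. LDHA, HK1 and SLC16A1 differed in size or sign between the slides. SLC16A1, the lactate and pyruvate carrier, ranged from 12.05 to 12.76 in LV. It lay at 10.61, 10.56 and 10.61 on IVS Control 1, 2 and 3, at 11.91 and 12.06 on Control 4 and 5 and at 13.24, 13.00 and 12.86 on slide 5, so the difference was -0.60 with all arrays (adjusted p = 0.408) and 0.57 on slide 5 (adjusted p = 0.0975 from limma). Its second probe differed by 0.25 and 0.22. HK1 also went from below 0 to above it, from -0.31 to 0.39. LDHA was near 0 with all arrays and lower on slide 5, at -0.04 and -0.90, and its second probe gave 0.18 and -0.76.

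In the IGF and growth hormone axis, 11 genes were tested, with 0 higher and 3 lower at an unadjusted p under 0.05: IGF1 (-0.46), IGFBP3 (-0.44) and IGFBP6 (-0.28). On slide 5 their differences were -0.12, -0.31 and -0.09. The second IGFBP6 probe gave -0.13 and 0.05. GHR, the growth hormone receptor, lay at 9.997, 10.20 and 10.53 on slide 5 above every free wall (9.41 to 9.89), and at 9.25 to 9.58 on slides 3 and 4. Its difference was 0.15 with all arrays and 0.66 on slide 5 (adjusted p = 0.0544 from limma). In the TGF-beta family, the largest list by tested genes, 0 of 20 had an unadjusted p under 0.05 with all arrays or on slide 5, and the medians were -0.0217 and 0.00579. In the cell cycle list, 0 of 12 had one with all arrays and none was higher in IVS, with a median of -0.137, while the median on slide 5 was 0.068.

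Receptors and signalling genes of the heart passed in small numbers. Of 10 tested genes of steroid receptors and cortisol metabolism, HSP90AA1 was higher (0.68) and POMC (-0.39) and HSD11B2 (-0.31) lower at an unadjusted p under 0.05. HSP90AA1, a chaperone of the glucocorticoid receptor, lay at 13.44, 13.10 and 13.07 on IVS Control 1, 2 and 3 and between 10.84 and 11.77 on the other 5, against 11.13 to 11.77 in LV, and its difference on slide 5 was -0.11. HSD11B2, which inactivates cortisol, differed by -0.12 on slide 5. POMC, the precursor of corticotropin, differed by -0.31 on slide 5 (adjusted p = 0.207 from limma). Of 16 vasoactive genes, PTGS1, the constitutive cyclooxygenase, was lower in both comparisons (-0.34 and -0.38, adjusted p = 0.136 and 0.201 from limma). Of the immediate early genes, ZFP36, which speeds the decay of cytokine messages, was lower in both (-0.33 and -0.38) by its brighter probe and not by its second (0.04 and -0.01), and EGR1 differed by -0.24 and -0.04. JUNB differed by -0.26 and -0.41.

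Genes of contraction and excitation had few named probes. In the sarcomere, 5 of 39 genes were tested and CRYAB, a chaperone of the sarcomere, was lower (-0.35, adjusted p = 0.0875 from limma, and -0.13 on slide 5). SRI (sorcin, a regulator of calcium release) differed by -0.34 and 0.01. CALM2 differed by 0.12 and 0.20, AQP1 by -0.24 and -0.91, and NDUFA12, a subunit of complex I, by -0.16 and 0.26, each with an unadjusted p under 0.05 on slide 5 alone. PSMB8, an immunoproteasome subunit, differed by -0.24 and -0.15, and CD14, a monocyte receptor, by -0.05 and -0.25. HBB, the beta chain of hemoglobin, ranged from 11.03 to 15.22 in LV and from 9.09 to 15.33 in IVS, and its difference of -0.39 lay within that spread (exact permutation p = 0.683).

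TNNC2, the troponin C of fast skeletal muscle, fell in separate levels. It was at 13.90, 13.52 and 13.54 on IVS Control 1, 2 and 3 and at 13.45 on LV Control 2, and between 9.03 and 9.84 on the other 12 arrays. Its difference of 1.04 (SE 0.84) was not called (adjusted p = 0.533 from limma, exact permutation p = 0.335) and was -0.60 on slide 5, and its second probe gave 1.11 and -0.35. The skeletal muscle list had 2 of 14 markers tested, MYOD1 and TNNC2. The summed intensity of its 5 markers with a probe, tested or not, was 927 to 11600 in LV and 1030 to 15700 in IVS. The arrays with high TNNC2 in the septum are the 3 that stood apart on the first principal component, and its part in the other differences was not tested.

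**Figure D4:**
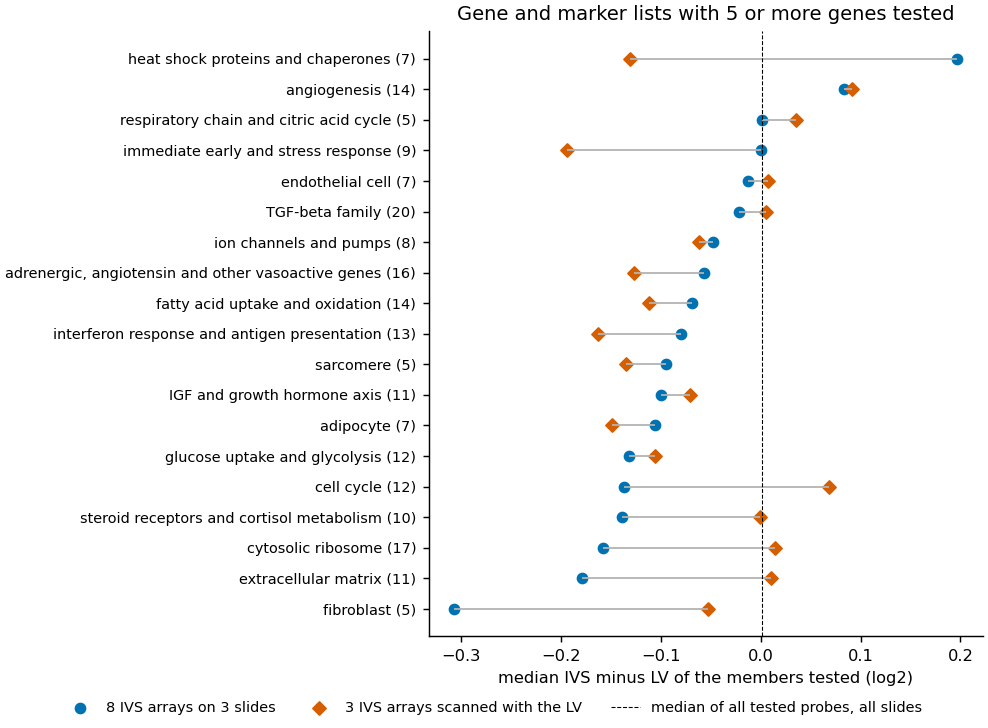
Median IVS minus LV difference (log2, horizontal axis) of the tested members of each gene or marker list with 5 or more tested genes (number in parentheses), with all 8 IVS arrays (circles) and the 3 scanned with the LV (diamonds). The medians of the extracellular matrix, ribosome and cell cycle lists go from -0.179, -0.158 and -0.137 to 0.00995, 0.0141 and 0.068. That of angiogenesis stays above 0, at 0.0835 and 0.0912, as does that of the respiratory chain and citric acid cycle, at 0.00181 and 0.0358.

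The differences also went with the base composition of the probes. The tested probes were put in 4 classes by the number of G and C among their 60 bases. On slide 3, the median difference was 0.171 for probes with 13 to 21 such bases and -0.172 for those with 28 to 49, and on slide 5 it was 0.1 and -0.122. Slide 4 differed from the LV by -0.0079 and -0.0116 in these classes, and LV slide 2 from LV slide 1 by 0.0406 and -0.0233. Of the probes called with all arrays, 8 higher and 0 lower were among the 1811 in the class with the fewest G and C. In the class with the most, which held 1828 probes, 1 was called higher and 8 lower. Over all 11325 probes tested, 39 were called higher (0.344%) and 23 lower (0.203%). The median share of G and C was 40% in the probes called higher, 45% in those called lower and 43.3% in all tested. As an alternative added after the data were seen, each array was centred within classes of G and C that were finer than these 4. Then 31 probes were called with all arrays (18 higher, 13 lower), 4 on slide 5 and 1 in both. EIF4G1 (0.42, adjusted p = 0.0263 from limma), EIF3A (0.53, adjusted p = 0.0295) and AIMP2 (-0.55, adjusted p = 0.0295) kept their calls, and AGGF1 (0.34, adjusted p = 0.114), ATP6V0C (-0.56, adjusted p = 0.0649) and LOC443338 (-0.77, adjusted p = 0.0511) did not.

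**Figure D5:**
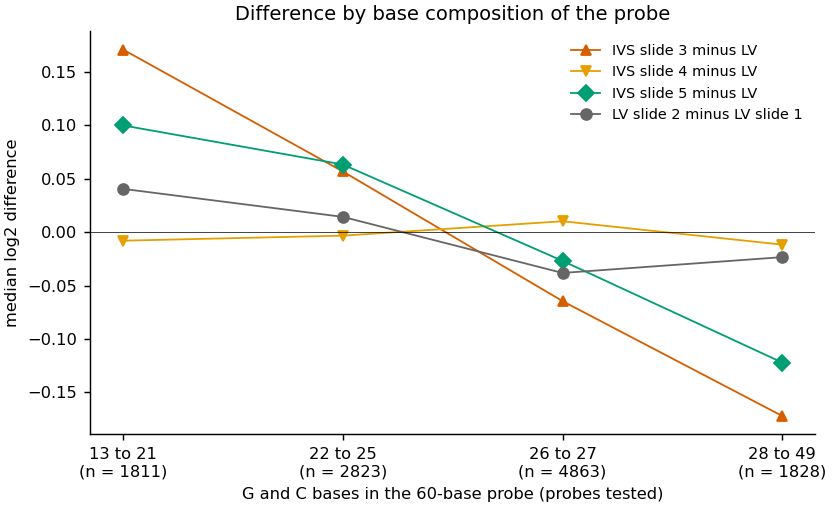
Median log2 difference (vertical axis) of the tested probes in 4 classes of G and C bases per 60-base probe (horizontal axis), for each IVS slide against the LV and for the LV slides against each other. The lines of slides 3 and 5 run from above 0 to below 0 as G and C increase, from 0.171 to -0.172 and from 0.1 to -0.122, and slide 4 stays between -0.0116 and 0.0103.

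The CORT lambs give the same tissue contrast in other animals, on the same 5 slides. There 41 probes were called with all IVS arrays and 34 on the same scan date. The 62 probes called in Control lambs all had the same direction in CORT lambs, where 73.4% of all probes did, and 57 also had an unadjusted p under 0.05, against 12.5% of all. On the same scan date 60 of 62 had the same direction (65.2% of all probes) and 41 an unadjusted p under 0.05 (10.8% of all). All 11 probes called in both Control comparisons had the same direction there, 10 with an unadjusted p under 0.05. In CORT lambs EIF3A differed by 0.70 and EIF4G1 by 0.47, AGGF1 by 0.47, AIMP2 by -0.29, ATP6V0C by -0.35 and LOC443338 by -0.45. On the same scan date these were 0.63, 0.42, 0.56, -0.27, -0.16 and -0.41. Of the unnamed probes, A_70_P035421 and A_70_P057261 differed there by 0.40 and 0.59. A_70_P028786 and A_70_P002051 differed by only -0.12 and -0.02, against -0.42 and -0.38 with all IVS arrays of CORT lambs. The tissue difference of Control lambs was tested against that of CORT lambs over all 32 arrays, and 0 probes were called (0%, with 226 at an unadjusted p under 0.05). The smallest p among the 6 named genes was that of AIMP2, whose difference in Control minus that in CORT lambs was -0.29 (unadjusted p = 0.0247). These comparisons carry the slides of the first, so tissue and slide cannot be told apart in them either.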

How the data were processed

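RNA of IVS and LV was hybridised to 1-colour Agilent sheep arrays. The authors deposited the spot intensity and local background from Feature Extraction 10.1.1.1 per the labels, in arbitrary units, and a log2 matrix per tissue that was not used here because it was normalized within each tissue. The labels name Cy3 dye and the study's methods another dye and RNA amount, which changes no value here. Here the mean intensity was corrected for the median local background with normexp (offset 50) and the probes of the 16 arrays were quantile normalized together (limma 3.58.1, R 4.3.3, statmod 1.5.0; tables in Python 3.11.15). Control spots and outlier spots were left out and spots of a probe averaged. A probe was tested when over 10% brighter than the 95th percentile of the negative controls on at least 8 arrays. Groups were compared by the two-sided moderated test of limma (lmFit, eBayes), Benjamini-Hochberg over all 11325 probes, with no pairing. Single genes were also compared by a two-sided exact permutation test, which exchanges all 16 arrays and ignores their slides. The limma test was checked on simulated arrays drawn independently of each other. They held no slide effect and no pairing, so the check does not bear on slide differences. The number of arrays limits the precision.

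The comparison, the lists and the tests were chosen with earlier results of these data known. Lists used 1 probe per gene, the brightest. Named are called probes with 1 gene symbol, the 3 list members with the lowest p and the 2 brightest of each marker list. Of the 86 so named, those with an unadjusted p under 0.05 in either comparison are given singly, with MB, MYH7, TNNC2 and HBB. A few of them are left out of the text. The genes VEGFA, FGF2, FGF7, GHR, LDHA, HK1, SLC16A1, RPS20, RPSA, IGF1R and SLC12A4 and the second probes of EIF3A and AGGF1 were chosen after their values were seen. Gene names are those of the array files, completed from a RefSeq table with 35057 sheep genes, 168 of them through a gene ID, and 65 older names were brought up to date by hand. Alternatives were other background corrections (offset 16 or 0, none), cyclic loess, the scanner's processed signal divided by its 75th percentile, normalization over all 32 arrays, other limits on dim probes (none, 4 or 16 arrays), trended and robust eBayes, array weights, slide or replicate number as a block, and leaving out slides or samples.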

Additional observations from a re-analysis of the deposited data

Results flagged for a closer look

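Of 114 groups of values, 1 tissue of 1 probe given singly in each, 6 held a sample far from the others by Dixon's test, where chance flags about 1 in 20 groups. In the LV all 3 were Control 2, with the highest value of TNNC2 (13.45, the nearest other 9.839), ANGPT1 (7.144, the nearest 6.911) and JUNB (8.925, the nearest 8.346). In the IVS, Control 8, the dimmest array, had the lowest value of MB (17.67, the nearest 18.11) and the highest of HSD11B2 (7.639, the nearest 7.192), and Control 3 the highest of FABP4 (7.646, the nearest 6.981).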

How the results depend on the processing

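The following are counts of probes called with all IVS arrays, then on the same scan date, then called in both, then of those that kept their direction with an unadjusted p under 0.05. They were 62, 38, 11 and 61. They were 56, 9, 3 and 55 with a normexp offset of 16, 17, 2, 1 and 17 with an offset of 0, 45, 22, 6 and 45 with no background correction and 5, 0, 0 and 5 with the processed signal over its 75th percentile (1933 and 1693 probes at an unadjusted p under 0.05). They were 51, 35, 7 and 49 with cyclic loess, 24, 31, 5 and 24 with trended and robust eBayes, 79, 470, 53 and 78 with array weights and 31, 4, 1 and 31 when centred by G and C. Normalization over 32 arrays and other limits on dim probes left 60 to 76, 38 to 53, 11 to 15 and 59 to 75.

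With all IVS arrays, slide as a random block gave 0 calls (875 at an unadjusted p under 0.05), and the count was 12 (1203) without slide 3, 241 without slide 4, 1410 (3535) without slide 5, 3950 (5001) with slide 3 alone, 226 with slide 4 alone, 38 with slide 5 alone, 544 with all 32 arrays in 1 fit and 8 (1250) without IVS Control 1, 2 and 3. The cause of these shifts was not tested. With the replicate number as a block 0 probes were called (2008 at an unadjusted p under 0.05, smallest adjusted p 0.0518). Whether the numbers pair the samples was not settled. Same-numbered arrays had correlations of their deviations from -0.214 to 0.432, and 2 of 8 LV arrays correlated best with their own number. Each of the 8 LV arrays had a different IVS array as its best match, mutually, at a correlation of 0.281 to 0.558 (highest second best 0.264). The labels do not say which samples share a lamb, and no pairing by these matches was tested. Leaving out 1 IVS array of slide 5 gave 0 to 27 calls on the same scan date, 0 to 6 in both and 50 to 54 that kept direction with an unadjusted p under 0.05. Between the IVS slides 3033 probes were called with cyclic loess and 557 with the processed signal (1176 as reported), and between the LV slides 1 with the processed signal (0). The test of Control against CORT lambs gave 443 at an unadjusted p under 0.05 with slide as a random block (226), and 0 calls throughout.

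All 6 named genes called kept their direction in 22 alternatives. They were called in 17 of them for EIF4G1, 16 for AIMP2, 15 for EIF3A, 12 for AGGF1, 10 for LOC443338 and 7 for ATP6V0C. The sign of other genes turned in single settings, and the cause was not tested. On slide 5 alone the difference was 0.21 for MYH7, -0.60 for TNNC2, 0.0139 for SRI, 0.0191 for DCN, 0.26 for NDUFA12, -0.11 for HSP90AA1, -0.0299 for MB, 0.28 for HBB, 0.39 for HK1, 0.57 for SLC16A1 and 0.0056 for RPS20. On slide 4 alone it was -0.11 for CALM2, 0.0212 for AQP1, 0.0658 for CD14, 0.0452 for SLC12A4, -0.0758 for FGF2, -0.0276 for FGF7, -0.19 for GHR and 0.26 for LDHA. On slide 3 alone it was 0.39 for AQP1, -0.0213 for CPT1A, 0.0813 for CD14, -0.37 for FGF2, -0.10 for GHR and 0.81 for LDHA. Without slide 5 it was 0.17 for AQP1, 0.072 for CD14, -0.19 for FGF2, -0.16 for GHR and 0.48 for LDHA. Without IVS Control 1, 2 and 3 it was 0.14 for MYH7, -0.56 for TNNC2, 0.16 for NDUFA12, -0.00533 for MB, 0.70 for HBB, 0.20 for HK1 and 0.15 for SLC16A1. Without slide 3 it was 0.0401 for NDUFA12. With array weights it was 0.00499 for NDUFA12. Centred by G and C it was 0.039 for CD14. With the processed signal it was -0.0683 for MB. With slide as a random block it was 0.00928 for LDHA.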
